A study of Mus musculus with 12 samples.

Results

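The 4 libraries described here came from unheated ATDC5 cells, a mouse line first isolated from a teratocarcinoma and used as a culture model of cartilage formation. They are 4 of the 12 libraries of the series and were chosen by their label of 10 min at 37 °C, with no measured value entering the choice. The labels give the genotype as WT and the cell type as cartilage progenitor cells. All cells of the series were grown in DMEM with a high sugar content and 10% FBS under 5% CO2. The other groups were held for 10 min at 40 °C (4 libraries) or 44 °C (4 libraries). The design text calls the 4 libraries of a group biological replicates. All came from 1 cell line, so the spread between them is that of cultures of 1 line and not of animals. The time from the exposure to RNA extraction is not given in the sources used here, so the 37 °C cells are the unheated reference at an unknown interval after the 10 min step.

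Cartilage forms when loose mesenchymal cells condense, switch on SOX9, and with its partners SOX5 and SOX6 produce a matrix of type II collagen and aggrecan. Cells that go on to hypertrophy turn to type X collagen, Indian hedgehog and mineral-handling enzymes. ATDC5 cells are known to pass through these stages over weeks when insulin is added, and to proliferate as undifferentiated cells before that. The labels name no insulin or other differentiation agent for these cultures.

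The deposited table gives 1 raw count per gene and library. Totals at 37 °C were 19506705, 16469745, 17106269 and 16675712 counts in replicates 1 to 4. Counts were divided by the gene length in the table and scaled to the same sum in each library, which gives TPM (the share of a gene among all transcripts, in parts of a fixed total) and allows levels of different genes to be compared. A gene was called expressed at 1 TPM or more in all 4 libraries. On a gene of 1000 bases, 3 counts correspond to between 0.483 and 0.565 TPM, so levels below about 1 TPM rest on few counts. For a gene with no count, the limit given below is the TPM of 3 counts over the 4 libraries together, and it covers counting error only. As in any bulk RNA measurement, a low level can come from few cells with much of an RNA or from many cells with little, and these cannot be told apart.

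Of 54532 genes in the table, 13143 were expressed and 29220 had no count in any of the 4 libraries. Protein-coding genes made up 11234 of the expressed genes, which is 51.0% of the 22046 protein-coding genes listed. This share is the background against which the counts of each gene group below can be read. A mean of 10 TPM or more was reached by 9191 genes, 100 TPM or more by 1783 and 1000 TPM or more by 118. The 10 highest genes of each library held 10.5% ± 0.318 of its TPM and the 100 highest 28.9% ± 0.301 (SD, n = 4 libraries, as for every ± below).

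**Figure D1:**
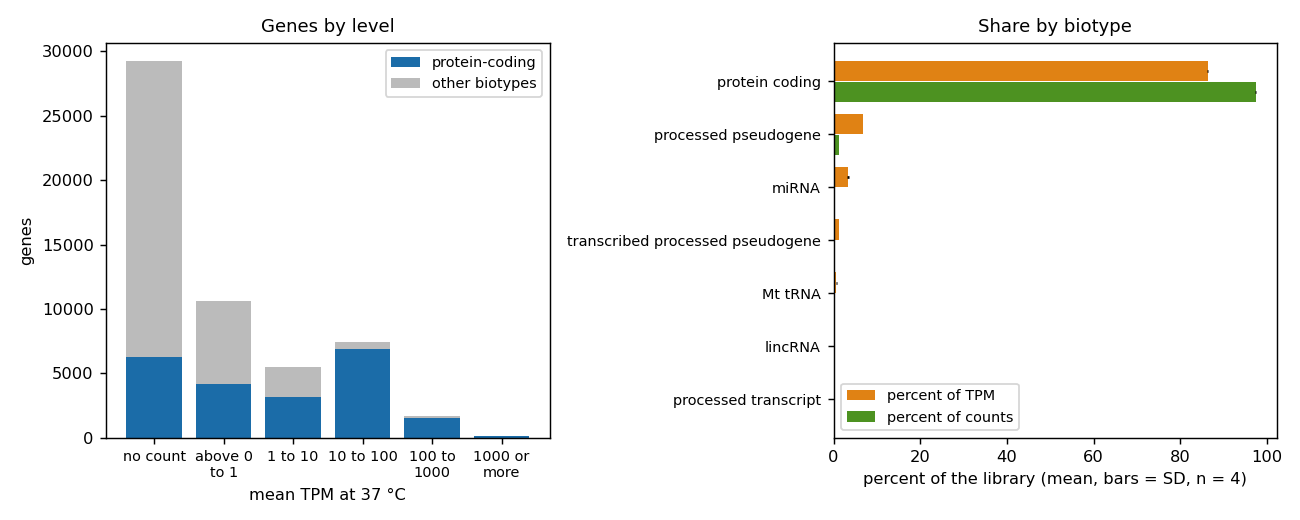
Left, number of genes in each band of mean TPM at 37 °C, split into protein-coding genes and other biotypes; right, percent of the library held by the 7 biotypes with the most TPM, by TPM and by counts (bars are the mean of 4 libraries, whiskers the SD). Protein-coding genes fill most of the bands from 10 TPM upward, and they hold 86.2% of TPM against 97.3% of counts.

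The promoters of 4 strongly expressed genes are printed, to show how such promoters with and without the letters TATAAA in the usual position compare. Among the genes with a promoter in the RefSeq table, they are those of the 2 highest with these letters there and of the 2 highest without them there. A TATA box is a core promoter element a short distance before the start site, and CpG-rich promoters without it are the common type among genes that most cells use. The sequences are RefSeq promoters on GRCm38.p6, from 250 bases before to 50 after the first listed start of each gene, written 5′ to 3′ on the gene's strand. Capitals mark the letters TATAAA where they began between 40 and 20 bases before the start. Vim encodes the intermediate filament protein vimentin, Igfbp4 a secreted binding protein of insulin-like growth factors, Eef1a1 a translation elongation factor and Spp1 the secreted phosphoprotein osteopontin. 
Vim, chr2:13574061-13574360, plus strand: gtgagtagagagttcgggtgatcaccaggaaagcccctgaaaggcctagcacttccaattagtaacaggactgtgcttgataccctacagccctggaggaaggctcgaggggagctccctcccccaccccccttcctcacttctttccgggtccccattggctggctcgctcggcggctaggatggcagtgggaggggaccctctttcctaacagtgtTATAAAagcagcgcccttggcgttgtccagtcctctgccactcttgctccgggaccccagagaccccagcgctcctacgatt
Igfbp4, chr11:99040994-99041293, plus strand: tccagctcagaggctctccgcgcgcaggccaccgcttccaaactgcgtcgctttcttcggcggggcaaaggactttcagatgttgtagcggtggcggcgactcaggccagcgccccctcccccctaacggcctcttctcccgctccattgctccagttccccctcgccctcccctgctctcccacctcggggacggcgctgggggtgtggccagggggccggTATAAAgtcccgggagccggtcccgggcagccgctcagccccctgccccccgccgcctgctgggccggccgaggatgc
Eef1a1, chr9:78481675-78481974, minus strand: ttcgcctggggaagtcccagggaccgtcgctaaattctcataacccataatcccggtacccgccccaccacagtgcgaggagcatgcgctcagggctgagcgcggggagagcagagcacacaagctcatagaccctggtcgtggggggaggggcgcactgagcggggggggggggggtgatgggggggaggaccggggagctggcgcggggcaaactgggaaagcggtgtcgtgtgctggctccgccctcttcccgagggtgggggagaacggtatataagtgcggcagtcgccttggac
Spp1, chr5:104434861-104435160, plus strand: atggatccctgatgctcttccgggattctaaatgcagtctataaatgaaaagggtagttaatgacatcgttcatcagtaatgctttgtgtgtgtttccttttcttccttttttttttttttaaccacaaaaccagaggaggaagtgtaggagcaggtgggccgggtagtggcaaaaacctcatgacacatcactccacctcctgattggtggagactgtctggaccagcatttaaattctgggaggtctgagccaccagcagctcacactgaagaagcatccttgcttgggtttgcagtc
In Vim the motif began at position -32 and in Igfbp4 at -28. The Eef1a1 window held the similar letters TATATAAG after its first listed start, and the Spp1 window held TATAAA well before the position searched. So neither promoter is shown to lack a TATA box. The ratio of observed to expected CpG was 0.421 in Vim, 0.724 in Igfbp4, 0.697 in Eef1a1 and 0.195 in Spp1. The Spp1 window was also the poorest of the 4 in G and C, at 45.3% against 59.3% to 71.3%.

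RefSeq held promoters for 16480 of 21975 protein-coding nuclear gene symbols, 20098 windows in all. The motif TATAAA in that position, on the gene's strand, was found in 2.48% of all windows, in 1.05% of those of expressed genes (118 windows) and in 4.30% of the others. It was not evenly spread over levels. Windows of genes below 0.01 TPM held it in 5.19%, those from 10 to 100 TPM in 0.786%, those from 100 to 1000 TPM in 1.60% and those of 1000 TPM or more in 3.85%. The last value is 3 of 78 windows. The median ratio of observed to expected CpG was 0.769 over expressed genes and 0.258 over the others, and median GC content was 61.3% and 50.7%. By level, the CpG ratio was 0.195 below 0.01 TPM, 0.792 from 10 to 100 TPM, 0.818 from 100 to 1000 TPM and 0.788 at 1000 TPM or more, so it did not go on rising in the highest genes. A motif match describes letters in a window and says nothing of binding, and genes are not replicates, so no test was made.

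The most abundant nuclear transcripts came from translation, cytoskeleton, iron storage, calcium-binding and secreted-protein genes. Eef1a1 stood at 10152, 9986, 10180 and 10023 TPM in replicates 1 to 4, and the libraries differed little. Lgals1, which encodes the galactose-binding protein galectin-1, stood at 6661, 6716, 6636 and 6441 TPM. Spp1, on chromosome 5 from 104435118 to 104441050 on mm10, stood at 7578, 6133, 5471 and 6367 TPM, highest in replicate 1 and lowest in replicate 3. Fth1, the heavy chain of the iron store ferritin, had a mean of 5861 ± 290.2 TPM. The chaperone gene Hsp90ab1 had 4466 ± 141 TPM, and Vim 2712 ± 135. The calcium-binding S100a11 and S100a6 had 3538 ± 54.3 and 2832 ± 73.2 TPM. Among the 15 highest genes by the naming rule, 6 encoded ribosomal proteins: Rplp1 (7266 ± 130.4 TPM), Rpl8 (5189 ± 159), Rps3a1 (4747 ± 117), Rplp0 (3929 ± 28.5), Rpl36 (3121 ± 126) and Rps15 (2719 ± 47.7). Together the 87 ribosomal protein genes held 9.39% ± 0.110 of TPM.

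By biotype, protein-coding genes held 86.2% ± 0.156 of TPM and 97.3% of counts. Processed pseudogenes, which are copies of spliced mRNAs, held 6.75% ± 0.0513 of TPM and 1.27% of counts, with 807 of 9497 expressed. Annotated miRNA genes held 3.37% ± 0.2001 of TPM but 0.0629% of counts. Nearly all of that was 1 gene of 57 bases on chromosome 16, Gm23935, listed as a miRNA gene. It had 10498, 10069, 9820 and 10271 counts, or 29650 to 33576 TPM, so its short length turned these counts into the highest TPM of the table. These libraries were made from poly-T captured RNA and do not measure mature miRNAs. Long intergenic non-coding RNAs held 0.372% ± 0.0356 of TPM, with 255 of 5559 expressed. Malat1, a nuclear long non-coding RNA found in most cell types, stood at 525, 360, 412 and 414 TPM. Gm10076, listed as an intergenic RNA, stood at 637, 131, 363 and 171 TPM, which is among the most uneven series of values here.

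Mitochondrially encoded genes held 5.09%, 5.79%, 6.04% and 5.50% of TPM, lowest in replicate 1. Levels within this group were far apart. The cytochrome oxidase subunit gene mt-Co1 stood between 15080 and 15790 TPM, whereas its partners mt-Co2 and mt-Co3 stood at 200 ± 16.9 and 78.4 ± 9.17 TPM. The ATP synthase subunit gene mt-Atp6 stood at 92.2 ± 9.16 TPM. Near-identical copies of mitochondrial, ribosomal protein and glycolytic genes exist elsewhere in the genome. How reads that map to several places were counted is not given in the sources used here, so levels of these genes and of their pseudogenes are uncertain.

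In the list of chondrocyte and osteoblast lineage factors, 15 of 24 were expressed (62.5%), near the 51.0% of all protein-coding genes and the 56.3% of all annotated transcription factors. Sox9, Runx1 and Runx2 were among those expressed, and Sox6, Sp7, Dlx5, Dlx6 and Msx2 were at or near 0 counts. Sox9, the master regulator of chondrocyte fate, lies on chromosome 11 from 112782224 to 112787760 (mm10). It stood at 52.5, 38.9, 32.3 and 40.4 TPM, highest in replicate 1. Its partner Sox5 stood at 2.17, 1.56, 1.44 and 1.94 TPM. Sox6, the other partner, had 3 counts in all, in replicates 3 and 4. Sox9 was thus above Sox5 in each library, and Sox6 was at the limit of detection.

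Runx1 and Runx2, factors of early and of hypertrophic chondrocytes and osteoblasts, stood at 31.1 ± 2.49 and 22.2 ± 1.39 TPM. Their shared partner subunit gene Cbfb stood at 173, 186, 198 and 191 TPM. Mef2d, of the MEF2 family that acts in hypertrophy, had 110 ± 5.40 TPM. Of factors that act early in somite-derived cartilage, Pax9 had 16.4 ± 2.20 TPM and Nkx3-2 7.003 ± 2.07. The repressor gene Trps1 had 14.97 ± 0.749 TPM. The osteoblast factor Sp7 had 6 counts in all (0.0775 TPM). Dlx5, Dlx6, Msx2 and Barx2, homeobox genes of skeletal and craniofacial development, had no count, which allows up to 0.0592 TPM for Dlx5.

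Of 31 general mesenchymal factors, 19 were expressed and 14 reached 10 TPM, a share of 61.3% expressed against 62.5% of the chondrocyte and osteoblast factors. Twist1, a basic helix-loop-helix factor of mesenchyme, stood at 376, 347, 320 and 358 TPM and made up 41.9% of the summed TPM of its list. Prrx1, a limb mesenchyme homeobox gene, stood at 98.0 ± 5.89 TPM, Pitx1, a hindlimb homeobox gene, at 89.9 ± 3.64 and Shox2, a proximal limb homeobox gene, at 34.6 ± 2.48. Snai1, a repressor of epithelial genes, stood at 71.2 ± 6.91 TPM. The limb genes Tbx4 and Tbx5, which mark hindlimb and forelimb, were at 0 counts and 0.00996 TPM.

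**Figure D2:**
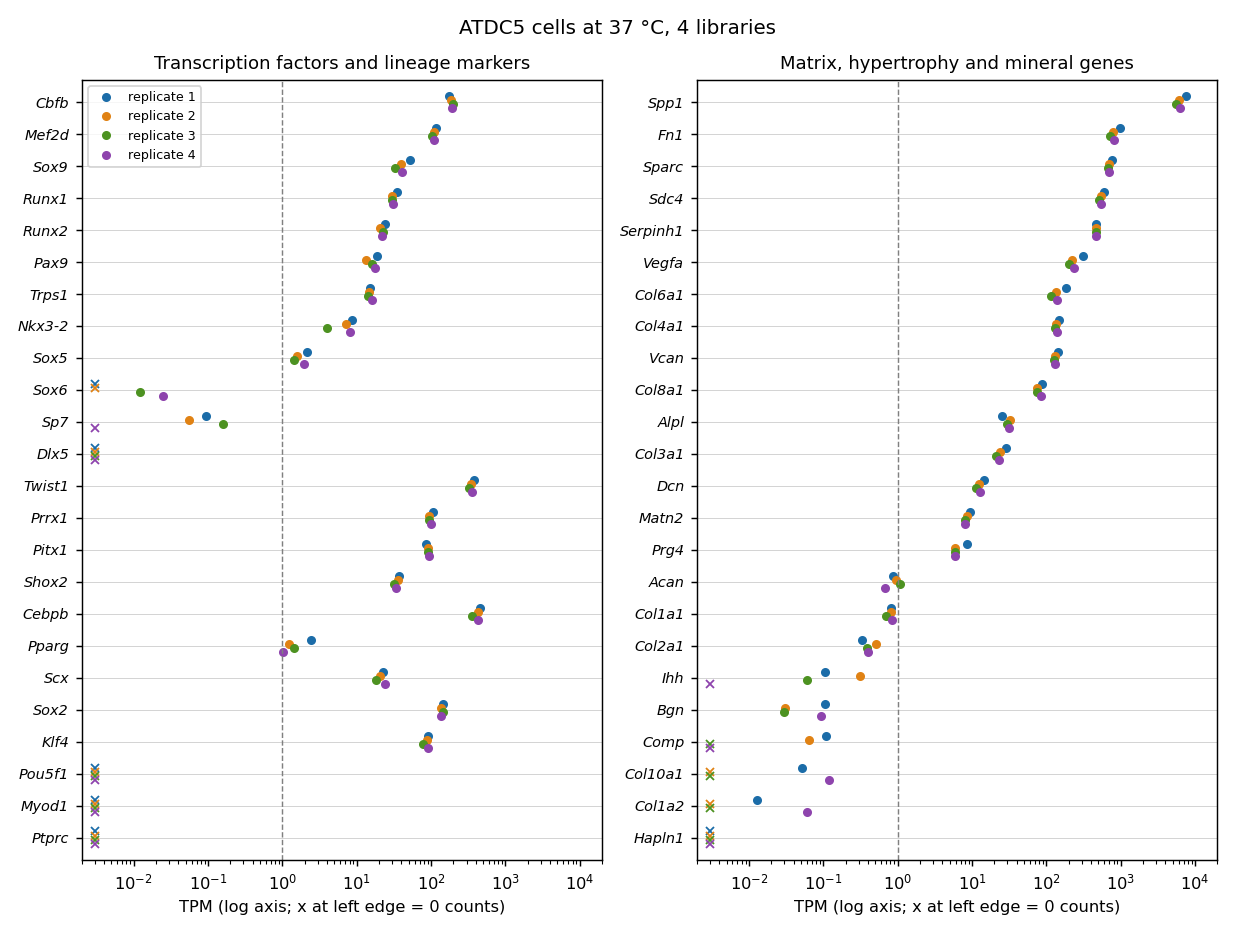
TPM of transcription factors and lineage markers (left) and of matrix, hypertrophy and mineral genes (right) in each of the 4 unheated libraries, on a log axis; points are libraries, crosses at the left edge are libraries with no count and the dashed line is 1 TPM. Sox9 lies between 32.3 and 52.5 TPM, while Col2a1 lies between 0.331 and 0.509 and Hapln1 has no count.

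The Hox genes, which record position along the body axis, showed a sharp boundary. In paralogue groups 1 to 8, 14 of 24 entries of the table were expressed. In groups 9 to 13, none of 16 was, 14 had no count and the others, Hoxa9 and Hoxa10, had 4 counts together. The highest were Hoxb7, at 46.5, 48.9, 49.7 and 56.0 TPM, and Hoxb6, at 38.1, 42.3, 37.2 and 41.4 TPM. Hoxa5, Hoxa6 and Hoxa7 stood at 15.01 ± 1.99, 13.8 ± 3.06 and 11.4 ± 1.002 TPM. By cluster, 7 of 11 Hoxa, 6 of 10 Hoxb, 0 of 9 Hoxc and 1 of 10 Hoxd entries were expressed. The single Hoxd member was Hoxd8, at 6.40 ± 1.02 TPM, and the highest of the Hoxc cluster was Hoxc6, at 0.375 TPM. Hoxd4 appears in the table under 2 identifiers, both below 1 TPM.

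**Figure D3:**
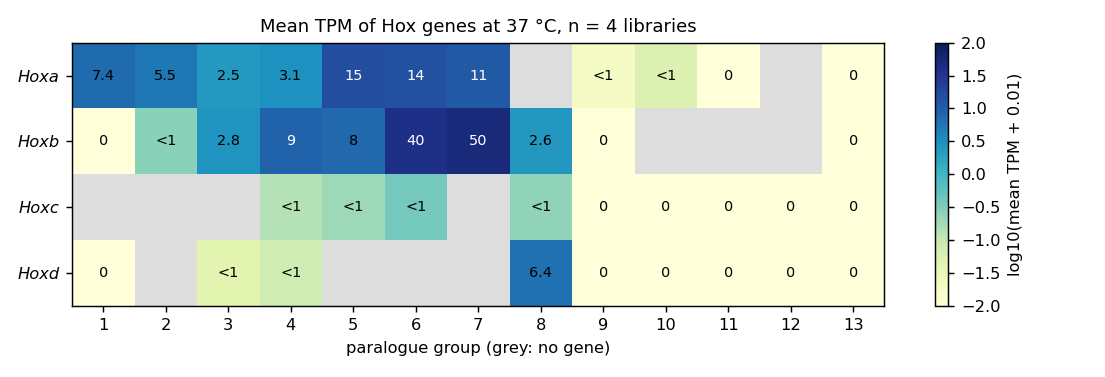
Mean TPM over the 4 unheated libraries of each Hox gene, by cluster (rows) and paralogue group (columns); colour gives log10(mean TPM + 0.01), grey marks positions with no gene in the table, and for Hoxd4 the higher of its 2 entries is shown. Values of 1 TPM or more are in groups 1 to 8 of the Hoxa and Hoxb clusters and at Hoxd8, up to 50.3 TPM at Hoxb7.

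Across all families of the deposited transcription factor annotation, 827 of 1469 genes were expressed (56.3%). Homeobox genes were at 59 of 232 (25.4%) and basic helix-loop-helix genes at 41 of 100. All 10 E2F genes and 22 of 24 MYB genes, families with members that act in the cell cycle, were expressed. C2H2 zinc finger genes were at 363 of 576, with a median of 8.62 TPM among those expressed, against 36.8 TPM for the E2F family.

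Markers of other lineages were checked, since the line comes from a teratocarcinoma. Sox2, a factor of pluripotent and neural progenitor cells, stood at 146, 138, 144 and 135 TPM. Klf4, which acts with it in pluripotent cells and also in epithelia, stood at 86.7 ± 6.82 TPM. The defining pluripotency gene Pou5f1 had no count, which allows up to 0.0596 TPM, and Nanog had 8 counts in all. The list of 14 pluripotency and germ cell genes had 2 expressed, Sox2 and Klf4, and 7 with no count. In the neural list 3 of 12 were expressed (Sox2, the tubulin gene Tubb3 at 23.9 ± 1.44 TPM and the microtubule gene Map2 at 1.89 ± 0.401), and 6 had no count.

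Tendon factors were present without the late tendon gene. Scx, the tendon and enthesis progenitor factor, stood at 22.5, 20.3, 18.4 and 24.1 TPM, and Mkx, a second tendon homeobox factor, at 8.56 ± 1.09. Tnmd, the marker of mature tendon cells, had no count, which allows up to 0.0990 TPM. Of fat cell regulators, Cebpb stood at 458, 425, 356 and 430 TPM and Cebpd at 86.0 ± 8.59. The master adipocyte factor Pparg stood at 2.40, 1.21, 1.41 and 1.01 TPM, and the fat hormone gene Adipoq had no count.

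Muscle genes were nearly silent, with 1 of 12 expressed (Acta1, at 1.47 ± 0.513 TPM) and Myod1 and Myog at no count. In the smooth muscle list the actin gene Acta2 stood at 213 ± 11.5 TPM and the smoothelin gene Smtn at 93.7 ± 12.6. The contractile markers Tagln and Myh11 stood at 0.245 and 0.0601 TPM, so the members of that list were far apart. None of 10 endothelial genes was expressed, and their highest, Tie1, stood at 0.801 TPM.

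In the haematopoietic list 2 of 16 were expressed and 7 had no count, among them the pan-leukocyte gene Ptprc and the macrophage genes Csf1r and Adgre1. The lysosomal gene Cd68 stood at 101, 71.2, 65.2 and 76.6 TPM and made up 94.3% of that list's summed TPM. The other expressed member, the macrophage gene Mpeg1, stood at 5.27, 3.65, 3.30 and 3.18 TPM. The summed level of the list ran from 69.3 TPM in replicate 3 to 107.6 in replicate 1. In the epithelial list 3 of 10 were expressed. The keratin genes Krt18 and Krt14 stood at 199 ± 19.98 and 59.8 ± 11.5 TPM, whereas Krt8, the usual partner of Krt18, stood at 0.496 TPM and the cadherin gene Cdh1 at 0.700. Endoderm genes were low, with Gata6 at 10.1 ± 1.17 TPM, Gata4 and Hnf4a at no count and 2 of 9 expressed.

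The transcription factor Sox9 was thus well above 1 TPM in each library, and Col2a1 and Acan, the defining matrix genes of formed cartilage, were not. Of 25 cartilage matrix genes, 3 were expressed, beside 51.0% of protein-coding genes, and 8 had no count. Col2a1, the type II collagen gene on chromosome 15 from 97975602 to 98004695 (mm10), had 19, 25, 20 and 20 counts, or 0.331, 0.509, 0.392 and 0.403 TPM. Acan, the aggrecan gene on chromosome 7 from 79053483 to 79115099, had 40, 38, 44 and 27 counts, or 0.862, 0.958, 1.07 and 0.674 TPM. Both were detected in each library and both stayed below 1 TPM on average. Comp, a cartilage oligomeric matrix protein gene, had 3 counts in all, and Hapln1, which encodes the link protein of aggrecan, had none and could stand no higher than 0.0227 TPM.

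The expressed members were Matn2, a matrilin gene of many connective tissues (8.51 ± 0.665 TPM), Prg4, the lubricin gene of joint surfaces (8.65, 5.98, 5.89 and 5.96 TPM, highest in replicate 1) and Col27a1, a fibrillar collagen gene of cartilage (1.502 ± 0.145 TPM). The summed level of the list was 22.8 ± 3.26 TPM, which is below the level of Sox9 alone.

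Genes of hypertrophy and mineral handling were split. Of 18 members 8 were expressed. Col10a1, the defining collagen of hypertrophic cartilage, had 3 counts in all, and Ihh, the hedgehog ligand of prehypertrophic cells, had 8. The bone matrix genes Bglap and Ibsp had 4 and 2 counts. In contrast Spp1 made up 91.2% of the list's summed TPM. Vegfa, the growth factor that draws vessels into cartilage, stood at 307, 221, 200 and 235 TPM. Ank, which exports pyrophosphate and ATP, stood at 204 ± 7.44 TPM, the phosphate transporter genes Slc20a1 and Slc20a2 at 70.4 ± 1.90 and 57.6 ± 3.01, and Alpl, tissue-nonspecific alkaline phosphatase, at 29.6 ± 3.23. Mmp13, a collagenase of hypertrophic cells, stood at 1.99, 1.41, 0.882 and 0.488 TPM, a 4-library range across the threshold.

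The collagen genes that were expressed were mainly those of basement membranes, networks and beaded filaments. Of 44 chain genes 15 were expressed. Col6a1 stood at 181, 137, 114 and 141 TPM, Col4a1 at 148, 137, 131 and 137 and Col8a1 at 86.7, 75.7, 75.3 and 83.9. Chains of 1 trimer were unequal: Col6a2 stood at 19.9 ± 2.92 and Col6a3 at 2.54 ± 0.528 TPM, whereas Col4a2 stood at 54.2 ± 3.25. Of the fibrillar type I collagen, the main protein of bone and skin, Col1a1 stood at 0.789 ± 0.0690 TPM and Col1a2 had 5 counts in all. Col3a1, its usual companion in soft tissue, stood at 28.6, 24.1, 21.0 and 23.0 TPM.

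The machinery that folds and trims collagen was present despite the low fibrillar chains. Of 28 members 22 were expressed. P4hb, a subunit of collagen prolyl hydroxylase, stood at 975, 922, 916 and 917 TPM, and Serpinh1, the collagen chaperone, at 460, 462, 467 and 470. Pcolce, an enhancer of procollagen cleavage, stood at 254 ± 12.9 TPM and Lox, which cross-links collagen, at 55.5, 39.3, 33.8 and 36.4. Fkbp10, a collagen prolyl isomerase gene, and Adamts2, a procollagen protease gene, stood at 0.0154 and 0.00998 TPM.

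Matrix glycoproteins made up more RNA than collagens, with 37 of 51 expressed and a sum of 4165 ± 383 TPM against 647 ± 72.6 for collagens. Fn1, the fibronectin gene, stood at 974, 783, 722 and 808 TPM, Sparc, a collagen-binding glycoprotein gene, at 775, 698, 669 and 694 and Cyr61, a CCN family matricellular gene, at 339, 304, 327 and 303. Postn and Eln, genes of periosteal and elastic matrix, had 7 and 4 counts. Of 26 proteoglycan core protein genes 11 were expressed. Sdc4, a cell-surface heparan sulfate proteoglycan, stood at 551 ± 35.8 TPM and Vcan, the versican of condensing mesenchyme, at 133 ± 6.49. The small leucine-rich proteoglycan genes were apart, with Dcn (decorin) at 12.8 ± 1.35 TPM, Bgn (biglycan) at 0.0645 and Lum (lumican) at 1 count in all.

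Enzymes that build the sugar chains of proteoglycans were widely expressed, at 26 of 29. Papss1, which makes the sulfate donor, stood at 143 ± 14.4 TPM and Papss2, whose loss impairs skeletal growth, at 4.70 ± 0.966. Ugdh, which makes the glucuronic acid donor, stood at 95.3 ± 3.44 and the sulfate transporter gene Slc26a2 at 9.38 ± 0.555. Of the xylosyltransferase pair that starts the chains, Xylt2 stood at 35.5 TPM and Xylt1 had no count. Among proteases and inhibitors, 21 of 37 were expressed. The inhibitor genes Timp1 and Timp2 stood at 555 ± 17.9 and 215 ± 15.5 TPM and the membrane metalloprotease gene Mmp14 at 99.8 ± 1.998. The aggrecanase gene Adamts5 stood at 0.505 ± 0.114 TPM.

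Receptors for the signals that drive cartilage growth were present unevenly within families. Of 7 FGF receptor genes 3 were expressed, and Fgfrl1 was the highest, with 55.3% of the summed TPM of that list. Fgfr1 stood at 38.5, 37.2, 35.1 and 36.2 TPM. Fgfr3, the receptor that restrains growth plate chondrocytes, stood at 5.47, 4.50, 4.61 and 4.58 TPM. Fgfr2 and Fgfr4 had 9 and 7 counts in all. Of insulin-family receptors, Insr stood at 29.4 ± 2.84 TPM, Igf1r at 24.7 ± 0.955 and Igf2r, which clears IGF2, at 40.5 ± 2.81. The adaptor gene Irs2 stood at 16.3 ± 1.61 and Irs1 at 1.05 ± 0.110.

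In the TGF-beta and BMP families 11 of 14 receptor genes were expressed. Bmpr1a stood at 102, 99.3, 103 and 104 TPM, whereas its relative Bmpr1b, which acts in digit cartilage, stood at 0.486, 0.790, 1.12 and 1.13. Tgfbr2 stood at 17.8 ± 1.39. For hedgehog and PTH signalling, 9 of 12 were expressed. The hedgehog receptor gene Ptch1 stood at 25.6 ± 1.504 TPM, the co-receptor gene Gas1 at 74.8 ± 2.78, the transcription factor gene Gli3, mainly a repressor, at 30.1 ± 1.45 and Gli1, a target of the active pathway, at 2.55 ± 0.387. Pth1r, the receptor for PTH and PTHrP, stood at 8.64, 7.40, 5.70 and 5.41 TPM.

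Of Wnt receptors 15 of 21 were expressed, led by Ryk (117 ± 0.947 TPM), Fzd7 (78.9 ± 3.40) and Lrp5 (65.3 ± 7.58). Of 4 Notch receptor genes 2 were expressed, Notch2, at 59.4 ± 1.17 TPM, and Notch3. Notch1 stood at 1.01 ± 0.120 TPM and was below the threshold in replicates 2 and 3 (0.926 and 0.904 TPM). Among other receptor tyrosine kinases, Axl, a receptor of the ligand GAS6, stood at 824, 771, 764 and 773 TPM. It made up 66.1% of the summed TPM of that list. Met, the receptor for hepatocyte growth factor, stood at 92.1 ± 4.79, Ddr2, a collagen receptor, at 70.5 ± 2.63 and Egfr, the EGF receptor, at 9.48 ± 0.968. Pdgfra, a mesenchymal progenitor marker and PDGF receptor, stood at 6.37 ± 1.18 TPM.

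Cytokine receptors were nearly all expressed, 24 of 26. They included the interleukin-1 receptor gene Il1r1, at 47.5, 38.7, 38.0 and 37.5 TPM, the shared receptor subunit gene Il6st, at 64.1 ± 2.54, and the TNF receptor genes Tnfrsf12a and Tnfrsf1a, at 173 ± 21.9 and 129 ± 7.85. The glucocorticoid receptor gene Nr3c1 stood at 95.8 ± 8.59 TPM and the vitamin D receptor gene Vdr at 10.6 ± 1.42. Of receptors coupled to G proteins or related to them, F2r, the thrombin receptor, stood at 129.96 ± 2.98 and Ackr3, a scavenger of the chemokine CXCL12, at 104 ± 7.58.

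Ligand genes were more selective, with 39 of 100 growth factor and morphogen genes expressed and 22 with no count. Besides Vegfa, the highest were the EGF receptor ligands Areg, at 190, 159, 131 and 148 TPM, and Ereg, at 112 ± 3.66. Bmp4 stood at 45.2 ± 4.23 TPM and Tgfb1 at 48.3 ± 6.70. Pthlh, the growth plate signal that holds back hypertrophy, stood at 5.24 ± 0.989. Igf1 had 1 count and Igf2 6 counts in all, and the joint and cartilage factor Gdf5 had none, with a limit of 0.0577 TPM. So both IGF receptors were expressed and both IGF ligands were at the detection limit.

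Among binding proteins and antagonists 9 of 26 were expressed, and Igfbp4 held 64.6% of their summed TPM, at 1639, 1499, 1402 and 1520 TPM. Igfbp6 stood at 387 ± 27.7 TPM and the BMP antagonist gene Grem1 at 35.8 ± 2.93, while Igfbp5 and the BMP antagonist gene Nog had no count. Of cytokine genes 19 of 28 were expressed. Mif, an inflammatory cytokine gene, stood at 2057 ± 51.1 TPM, the neutrophil chemokine gene Cxcl1 at 454, 382, 329 and 388, the alarmin gene Il33 at 299.9, 198, 148 and 199 and Il6 at 91.0, 70.6, 65.3 and 81.0. Il1b had 4 counts in all and Cxcl12 none.

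**Figure D4:**
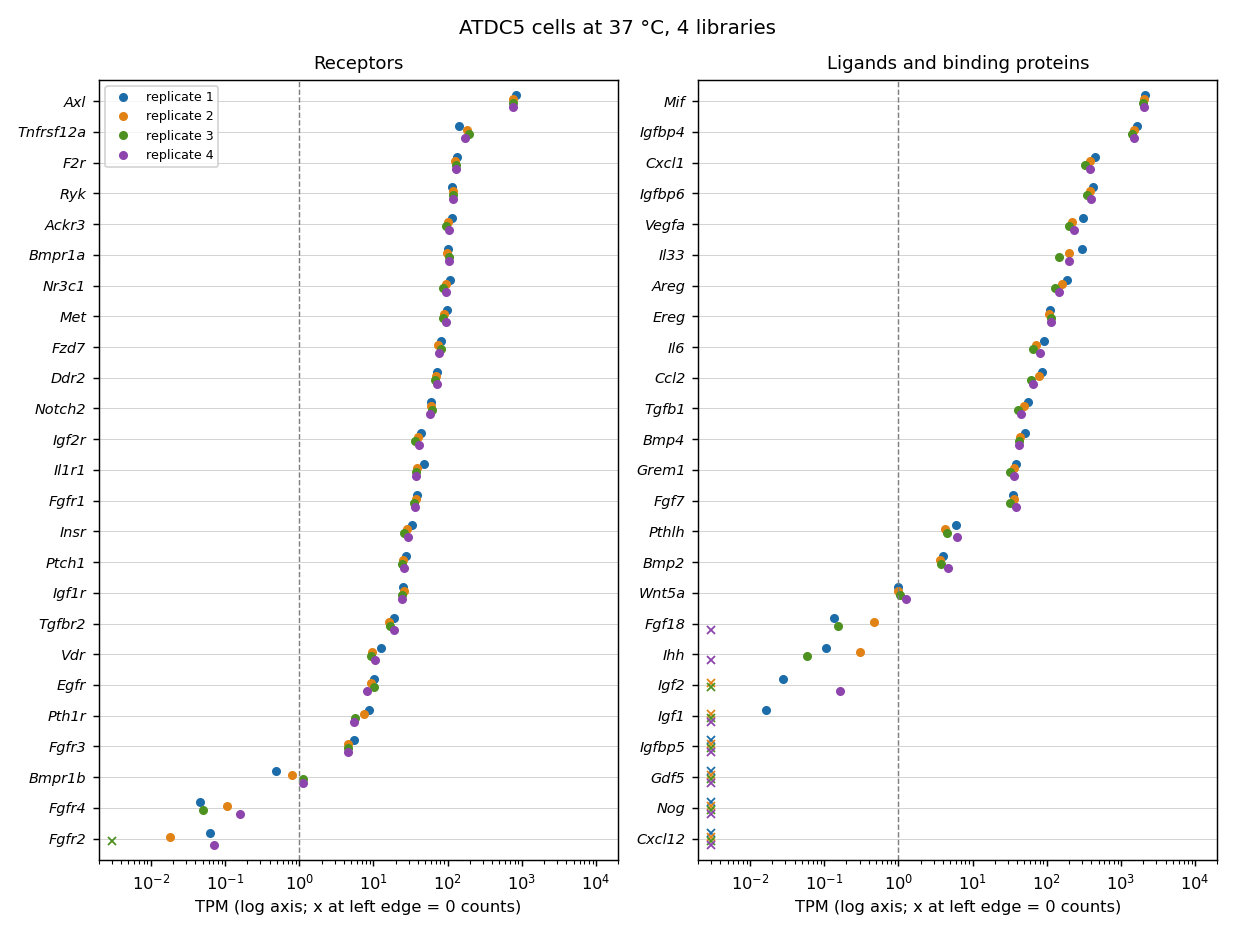
TPM of receptors (left) and of ligands and binding proteins (right) in each of the 4 unheated libraries, on a log axis, with crosses for libraries with no count and a dashed line at 1 TPM. Fgfr1 and Fgfr3 lie at 36.7 and 4.79 TPM on average, Fgfr2 and Fgfr4 at 0.0382 and 0.0902, and Igf1, Igf2, Igfbp5, Gdf5, Nog and Cxcl12 at or near no count.

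Surface genes used to sort mesenchymal progenitors were expressed for 15 of 20. The integrin subunit gene Itgb1 stood at 1269 ± 45.1 TPM, and Ly6a, which encodes the mouse progenitor antigen Sca-1, at 1218, 952, 872 and 987. Cd44, the hyaluronan receptor, stood at 113 ± 3.38 TPM and the tetraspanin gene Cd9 at 460 ± 36.3. Thy1, another common progenitor marker, stood at 0.538, 0.629, 0.121 and 0.124 TPM.

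The cells carried a proliferation programme, with 27 of 27 cell cycle genes expressed. Mki67, the proliferation antigen, stood at 241, 223, 216 and 241 TPM, and the S-phase enzyme gene Rrm2 at 572 ± 4.73. Ccnd1, a G1 cyclin, stood at 387 ± 26.6. Of 12 cell cycle inhibitor and checkpoint genes 11 were expressed, led by Cdkn2a, which encodes p16 and p19ARF, at 249, 226, 206 and 230 TPM. Cdkn1c, an imprinted inhibitor, had no count. Of 27 imprinted genes 10 were expressed. Dlk1, a marker of fetal progenitors, stood at 14.1 ± 1.19 TPM, and H19 and Grb10 had no count. On the Y chromosome Ddx3y stood at 19.4 ± 2.28 TPM, and Xist, the RNA of the inactive X chromosome, had 7 counts in all.

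Before any heating, the levels of heat shock genes were far apart. Hsp90ab1, Hsp90aa1, Hspd1 and Hspa8 stood at 4466, 1663, 1573 and 1424 TPM. Hspa1a and Hspa1b, the inducible HSP70 genes, stood at 0.814 ± 0.207 and 9.67 ± 0.316 TPM. These are near-identical copies and their split is uncertain. Hspb1, a small heat shock protein gene, stood at 242, 218, 179 and 226 TPM. Of 15 temperature- and stretch-sensitive channel genes 8 were expressed, and Ano1 was the highest, with 42.6% of the summed TPM of that list. Piezo1, a stretch-gated channel, stood at 75.8 ± 1.11 TPM. Trpv4, a chondrocyte channel opened by warmth and swelling, stood at 10.7 ± 0.874 TPM. The capsaicin and heat receptor gene Trpv1 had 2 counts in all.

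The 4 libraries were close but not equally so. The common biological coefficient of variation was 0.0798. It is the relative spread between libraries beyond counting error. The same measure was 0.0996 within the 40 °C group and 0.118 within the 44 °C group. Without replicate 1 the 37 °C value was 0.0528, and without any 1 of the other 3 it was between 0.0735 and 0.0927. Of the 9191 genes with a mean of 10 TPM or more, 94.4% had a highest library less than 1.5 times the lowest. Across these genes the SD of the log2 ratio of 2 libraries ran from 0.189 for replicates 2 and 4 to 0.271 for replicates 1 and 3. A chi-square statistic per gene ran from 2.88 to 14.9 over the 6 pairs. It was computed to look for a library deposited under more than 1 name, and none was counted together with another.

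Replicates 1 and 3 formed the ends of the spread. Replicate 1 was the highest library in 39.7% of these genes and the lowest in 30.8%, and replicate 3 was the highest in 27.1% and the lowest in 35.0%. Of the summed TPM of 48 gene lists, 36 were highest in replicate 1 and 38 lowest in replicate 3. Collagens summed to 746, 630.1, 572 and 642 TPM, and hypertrophy and mineral genes to 8255, 6739, 6033 and 6980.1 TPM. Mitochondrially encoded genes lay the other way, at 50927, 57887, 60398 and 54987 TPM, as did heat shock genes, at 11464.5, 12530.1, 13130.4 and 12273 TPM. Lists share genes and libraries, so these counts are a description. Cell cycle (5419 ± 101 TPM), cytoskeleton (23991 ± 211) and ribosomal protein genes (93898 ± 1101) were among the most even sums.

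**Figure D5:**
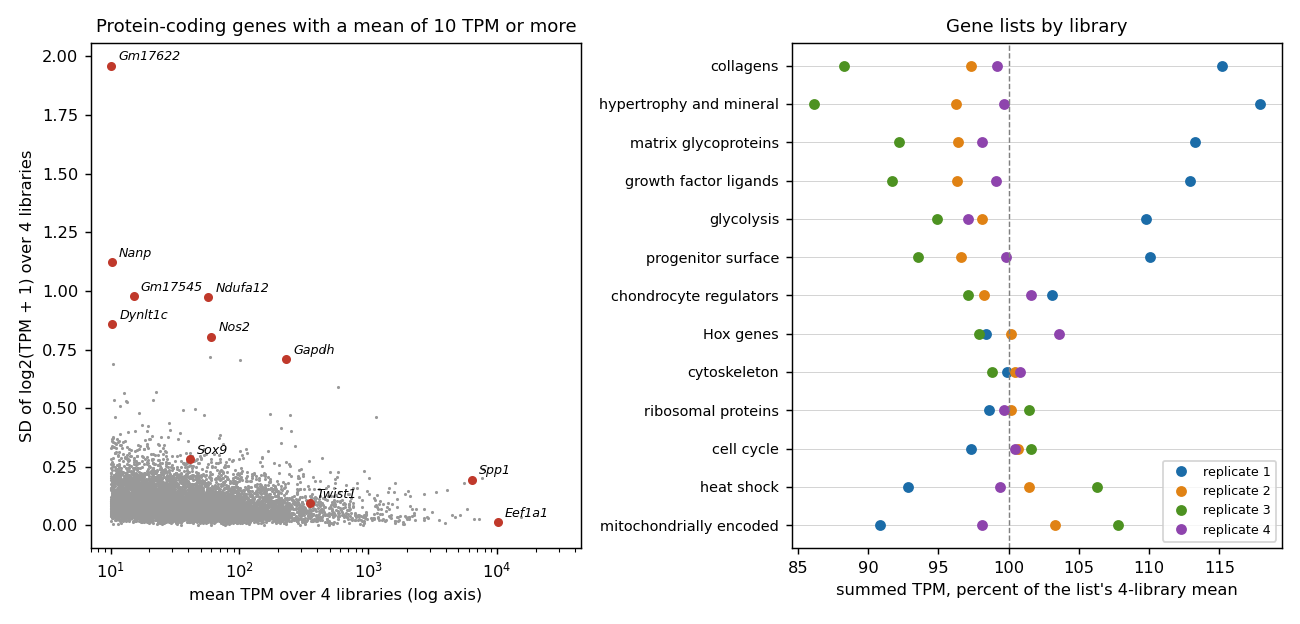
Left, SD of log2(TPM + 1) over the 4 unheated libraries against mean TPM for the 8497 protein-coding genes with a mean of 10 TPM or more, with 11 genes marked; right, summed TPM of 13 gene lists in each library as a percent of the list's mean. Replicate 1 is highest and replicate 3 lowest for collagens, matrix and ligand lists, and the order is reversed for heat shock and mitochondrially encoded genes.

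The 6 most even protein-coding genes at 10 TPM or more were Cep192, Pla2g12a, Tnks2, Actn4, Gnb1 and Atp5b. Actn4, an actin cross-linking protein gene, stood at 405, 406, 406 and 406 TPM, and Gnb1, a G protein subunit gene, at 297, 296, 297 and 296. Of 8497 such genes, 31 had a highest library at least 2 times the lowest. The 6 most uneven included Gm17622 and Gm17545, predicted genes of 45 and 72 bases, and Nanp, a sialic acid pathway phosphatase gene, at 15.4, 13.2, 10.4 and 2.004 TPM. Ndufa12, a complex I subunit gene, stood at 26.6, 26.8, 93.0 and 82.8 TPM, with replicates 1 and 2 apart from 3 and 4, and Dynlt1c, a dynein light chain gene with close copies, at 4.73, 5.73, 20.4 and 10.3. Nos2, the inducible nitric oxide synthase gene, stood at 117, 46.6, 30.5 and 46.9 TPM, highest in replicate 1. Gapdh, a glycolytic gene often used as a reference, stood at 299, 296, 216 and 104 TPM. The neighbouring glycolytic genes Pgk1 and Pkm stood at 1914 ± 187 and 2339 ± 114 TPM. The highest library of Gapdh was thus 2.87 times its lowest, while Actb, a cytoskeletal actin gene also used as a reference, stood between 2174 and 2324 TPM. Gapdh and Ndufa12 may share reads with near-identical copies elsewhere in the genome. The part of this in their uneven values was not tested.

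How far these levels moved after heating was read from edgeR's quasi-likelihood test over all 12 libraries, with Benjamini-Hochberg adjustment over 14424 genes. Heated groups share the same 37 °C libraries, so their comparisons with them are not independent. At 40 °C the test called 0.0% of genes in either direction (0 genes at an adjusted p under 0.05, and 752 at an unadjusted p under 0.05). DESeq2 called 4 lower genes. At 44 °C, 6.58% of genes were called higher (949) and 7.11% lower (1026).

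Collagen, matrix glycoprotein, proteoglycan and collagen-processing genes were called lower at 44 °C more often than higher. Matrix proteases and inhibitors were not, with 1 of 27 lower and 2 higher. Of the enzymes and transporters of sugar chain synthesis, 5 of 27 were lower and 1 was higher. Of the collagen genes tested, 10 of 27 were lower and 1 was higher, with a median log2 fold change of -0.31. Matrix glycoproteins had 16 of 43 lower and 3 higher, with a median of -0.31. Of proteoglycan core protein genes 8 of 12 were lower (median -0.32), and of collagen-processing genes 11 of 24 (median -0.30). Over all genes tested the median was -0.00034. In the 14 alternative fits the 4 medians stayed between -0.41 and -0.22, while the counts moved with the libraries used. Without 37 °C replicate 1 or 44 °C replicate 4 the lower collagen genes were 6, and without 44 °C replicate 1 they were 12. The higher collagen call was lost without 37 °C replicate 3 or 4 and without any single 44 °C library. It was also lost with DESeq2's test, without a filter on low counts and in the fit of only these groups. The lower matrix glycoprotein genes were 8 without 37 °C replicate 1 or 44 °C replicate 2 and 9 without 44 °C replicate 4. The lower proteoglycan genes were 5 without 37 °C replicate 1 or 4 or 44 °C replicate 2 or 4. The total of 1975 called genes fell to 979, 1156 or 1063 without 37 °C replicate 1, 2 or 4 and to 980 or 1062 without 44 °C replicate 2 or 4, and it was 3355 without 44 °C replicate 1.

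Cytokine genes and their receptors were also called lower more often than higher, beside the background of 6.58% higher and 7.11% lower. Of the cytokine genes 9 of 21 were lower and 0 higher, with a median log2 fold change of -0.42. Of cytokine receptor genes 8 of 26 were lower and 1 higher, with a median of -0.22. Without 37 °C replicate 4, 5 were lower and 0 higher, and the higher call was also lost without 37 °C replicate 1 or 44 °C replicate 2 or 4. Of cartilage matrix genes 1 of 9 was lower, Prg4 (8.65 to 5.89 TPM unheated, log2 fold change -0.86, edgeR adjusted p = 0.0108). Of chondrocyte and osteoblast factors 3 of 16 were lower (Mef2d, Trps1 and Zfp219), and of Hox genes 1 of 14 (Hoxb3). Of general mesenchymal factors 6 of 23 were lower and 0 higher. They included Twist1 (log2 fold change -0.28, edgeR adjusted p = 0.00693) and Prrx1 (-0.40, edgeR adjusted p = 0.0028). Of fat cell regulators and markers 2 of 8 were lower (Cebpb and Cebpd) and 0 higher. Of cell cycle genes 4 of 27 were higher and 2 lower, and of heat shock genes 4 of 16 were higher and 1 lower. The small counts of the chondrocyte and osteoblast, Hox, cell cycle and heat shock lists moved with single libraries. Those of the mesenchymal and fat cell lists were not examined in this way. The chondrocyte and osteoblast factors had 1 lower without 37 °C replicate 4 or 44 °C replicate 2 or 4. The Hox genes had 0 lower without 37 °C replicate 3 or 44 °C replicate 3 or 4. Without 44 °C replicate 1, 10 cell cycle genes and 7 heat shock genes were higher and 2 heat shock genes lower. The lower cell cycle genes were 1 without any 1 of replicates 2, 3 and 4 at 37 °C or at 44 °C.

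Col3a1, at 21.0 to 28.6 TPM in the unheated libraries, stood at 14.3, 7.62, 11.5 and 7.64 TPM after 44 °C, with no overlap between the groups. Its log2 fold change was -1.27 ± 0.173 (SE, edgeR adjusted p = 0.00051). Over all genes tested, 2561 of 14424 had no overlap between the 44 °C and the unheated libraries in TMM-scaled counts. Col6a1 stood at 93.9, 49.3, 70.0 and 47.8 TPM after 44 °C, all below its lowest unheated library of 114 TPM. Its log2 fold change was -1.17 ± 0.194 (edgeR adjusted p = 0.00184). Ly6a stood at 551, 373, 472 and 381 TPM, also without overlap, with a log2 fold change of -1.21 (edgeR adjusted p = 7.64e-05). The cytokine gene Il6 stood at 41.3, 23.6, 41.4 and 29.8 TPM, with -1.21 (edgeR adjusted p = 0.000643). The macrophage gene Mpeg1 was also called lower. It stood at 1.80, 1.19, 1.61 and 0.897 TPM, with a log2 fold change of -1.52.

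In the other direction, Hspb1 stood at 795, 685, 618 and 634 TPM after 44 °C, a log2 fold change of 1.63 ± 0.0915 (edgeR adjusted p = 2.94e-07). Hspa1b stood at 19.8 to 23.6 TPM (log2 fold change 1.12) and Hspa1a at 6.80, 5.42, 3.36 and 4.23 TPM (2.57). None of these 3 overlapped the unheated libraries, and they were among the genes named for the largest change. Cyr61 stood at 748, 656, 628 and 652 TPM (1.05, edgeR adjusted p = 1.6e-05). The endothelial genes Cdh5 and Pecam1 were also called higher, with log2 fold changes of 1.26 and 1.14. Their mean levels were low, at 0.203 and 0.418 TPM unheated and 0.498 and 0.940 TPM after 44 °C. They were the only calls among the 4 endothelial genes tested, whose median log2 fold change was 0.80. Spp1 fell by 0.51 on the log2 scale (edgeR adjusted p = 0.0146). Sox9 (log2 fold change -0.17 ± 0.201, edgeR adjusted p = 0.604) and Runx2 (-0.06 ± 0.0563, adjusted p = 0.528) did not pass the test. Nor did Col2a1 (0.05 ± 0.367, adjusted p = 0.949) and Acan (-0.42 ± 0.284, adjusted p = 0.332), whose low counts left wide errors.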

How the data were processed

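RNA sequencing libraries were made per the labels' protocols from total RNA (TRIzol Plus kit), with poly-T bead capture and random hexamer priming. The deposited table holds raw counts per gene for 12 libraries, and the tools named in the submitters' processing notes are featureCounts 1.5.0-p3, StringTie 1.3.3b, HISAT2 2.0.5 and fastp, with build mm10. Strand and multi-mapping settings are not given in the sources used here, so genes with near-identical copies, overlapping genes and antisense genes are uncertain. The gene length, biotype, coordinates and transcription factor family of each gene are those the authors deposited with the counts.

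TPM was computed from counts and gene length with pandas 2.3.3, all genes in the denominator. Totals at 37 °C were 16469745 to 19506705 counts. The 48 gene lists hold 1148 distinct genes, and 1 symbol had no match. Contrasts used edgeR 4.0.16 (TMM, filterByExpr with a minimum count of 10 and total of 15, quasi-likelihood, all 12 libraries), an adjusted p under 0.05, and DESeq2 1.42.0 as an alternative. The edgeR step was tested on simulated data. Spread was the common dispersion of an intercept-only edgeR fit.

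The members and lists were chosen with earlier results of these data known. Named genes were the 15 highest TPM, the 3 highest and preset members of each list, the 6 most and 6 least even, the 8 highest non-coding genes, and the called ones with the largest change. Others were chosen after their values were seen: Adamts2, Barx2, Bmp4, Cdkn1c, Col4a2, Col6a2, Col6a3, Dlx5, Dlx6, Eln, Fkbp10, Grb10, Hnf4a, Hoxa6, Hoxa7, Hoxa9, Hoxa10, Hoxb3, Hoxc6, Hoxd4, Hoxd8, Krt8, Lum, Msx2, mt-Atp6, mt-Co2, mt-Co3, Nkx3-2, Nog, Pax9, Pklr, Postn, Slc16a3, Slc20a2, Tagln, Tbx4, Tbx5, Tgfb1, Trps1, Trpv1, Xylt1, Xylt2 and Zfp219.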

Additional observations from a re-analysis of the deposited data

Results flagged for a closer look

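For each named gene, summed gene list and library measure, the gap between the most extreme unheated library and its nearest neighbour was divided by the range of the 4 libraries. 296 sets of 4 values were examined and 21 had such an isolated extreme, with a ratio over Dixon's 95% critical value. In 8 of these a gene had counts in 1 library only, which fixes the ratio at its highest value. Of the other 288 sets 13 remained (4.51%), where chance gives about 1 in 20. The 288 include genes with no count in any library, which could not be flagged. The share is therefore lower than among the sets that could be flagged. All 13 had replicate 1 as the extreme library.

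Replicate 1 stood alone above the others for 8 genes expressed in all 4 libraries, for 2 summed lists and for 1 gene below the threshold. The prolyl hydroxylase subunit gene P4hb stood at 975 TPM against 916 to 922 and the receptor kinase gene Axl at 824 against 764 to 773. Of the cytokine receptor genes, Il6st stood at 67.9 TPM against 62.6 to 63.4 and Il1r1 at 47.5 against 37.5 to 38.7. The ligand gene Bmp4 stood at 51.5 TPM against 42.8 to 43.6, the linker histone gene Hist1h1c at 38.4 against 28.6 to 29.3, the lubricin gene Prg4 at 8.65 against 5.89 to 5.98 and Fgfr3 at 5.47 against 4.50 to 4.61. The summed matrix protease and inhibitor genes stood at 1099 TPM against 988 to 1001, and the 4 Notch receptor genes at 75.4 against 68.5 to 69.2. The lactate exporter gene Slc16a3, which is below the threshold, stood at 0.878 TPM against 0.273 to 0.354.

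Replicate 1 stood alone below the others for the ribosomal protein gene Rpl8, at 4951 TPM against 5256 to 5282, and for Actn4, at 405.0 against 406.2 to 406.4, where the gap is far smaller than the level. The remaining sets were genes with counts in 1 library and none in the other 3: Ibsp at 0.175 TPM, an entry of Hoxd4 at 0.0802, Lum at 0.0769, Fkbp10 at 0.0618, Adamts2 at 0.0399, Tbx5 at 0.0399, Hoxa9 at 0.0325 and Igf1 at 0.0163. In each the non-zero library held 1 or 2 counts.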

How the results depend on the processing

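The count of expressed genes stayed within 1.5 times of 13143 under the other thresholds and scalings tried, between 11977 (at 2 TPM) and 14667 (a mean of 1 TPM). The protein-coding share of 86.2% became 97.3% in counts and, in an alternative chosen after seeing the data, 90.9% without genes under 300 bases. The spread of 0.0798 ran from 0.0528 to 0.0927 when 1 unheated library was left out. With TATAAA anywhere on either strand, 6.69% of windows of expressed genes held it. At 40 °C the 0 called genes became 13 without a filter on low counts and 4 with DESeq2, and stayed 0 in the fits without 1 library. At 44 °C the 1975 ran from 979 to 3355 without 1 library. A fit with the replicate block gave 2557 genes at 44 °C and 0 at 40 °C; deviations of same-numbered libraries correlated at -0.15 to 0.37, and not every library correlated best with its own number, so the numbers were not taken to pair the samples. Taking 200 bases off each gene length multiplied levels by a median of 0.884 and moved 15 of 717 genes by over 1.5 times, and the medians under the other scalings were at most 1.06. Many of these shifts were larger than the SD between libraries. Taking 200 bases off moved 169 named genes by more than their SD and left 173 within it. Leaving mitochondrially encoded genes out of the denominator moved 99 and left 243. In each case the cause was not tested. Depth limits levels below about 1 TPM.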

Other observations

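Glucose metabolism genes were expressed at high levels before heating. Of 23 glycolysis and glucose transport genes 21 were expressed, with a sum of 9813 ± 655 TPM (SD, n = 4). Pkm, a pyruvate kinase gene, and Pgk1, a phosphoglycerate kinase gene, led the list, followed by Tpi1, triosephosphate isomerase, at 1241 ± 90.9 TPM and Ldha, lactate dehydrogenase, at 1174 ± 44.1. Slc2a1, the common glucose transporter gene, stood at 362, 276, 245 and 279 TPM, highest in replicate 1 and lowest in replicate 3. The lactate exporter gene Slc16a3 and the liver pyruvate kinase gene Pklr, chosen after their values were seen, were below 1 TPM and at no count.

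Replication-dependent histone genes, which supply histones in S phase, were expressed for 27 of 67. Their summed level was 218 ± 19.1 TPM, against 230.1 ± 12.9 for Mki67 alone. Hist1h1c, a linker histone gene whose mRNA can be polyadenylated, was the highest, at 38.4, 28.6, 28.8 and 29.3 TPM. These libraries were captured by poly-T beads, and most replication histone mRNAs carry no poly-A tail. Its part in these values was not tested. After 44 °C Hist1h1c stood at 14.5, 11.8, 16.4 and 15.5 TPM, a log2 fold change of -1.13 (edgeR adjusted p = 0.000166), and at 40 °C it was not called (adjusted p = 0.823).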
